A study of Mus musculus with 18 samples.

Results

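The retinas of adult Plk3-KO mice were set against those of adult WT littermates on expression microarrays, to ask which genes of the mature retina differ in level when polo-like kinase 3 (Plk3) is disrupted. The comparison used 6 of the 18 arrays of the series, 3 of each genotype, chosen by the age and genotype in their titles. The other 12 came from P7 and P0 pups. They entered limma's estimate of the spread, and so every SE and limma p unless the adult arrays alone are named. Otherwise they entered only where named. Total RNA from isolated retinas was amplified, biotinylated and hybridised to Affymetrix Mouse Genome 430 2.0 arrays, where each probe set reads the 3' part of a transcript. Both genotypes were labelled as C57Bl/6 and as adult, with no age in days. The Plk3-KO line carries its disrupted allele in every cell, and the control retinas came from WT littermates. The study states that the line was partly Black Swiss, a background with the Rd1 retinal degeneration allele of Pde6b. Heterozygotes were crossed to C57Bl/6 until every litter typed as wildtype at Rd1. The share of Black Swiss sequence left was not given. Of the 45037 probe sets other than controls, 21005 had a mean log2 signal above 7 in adult Plk3-KO or adult WT retinas, the minimum the study set, and these were tested. They covered 11233 genes when each gene was read by the probe set with the highest mean over all 18 arrays, and all values for genes and gene lists are from that probe set unless another is named. The labels do not say whether arrays of a genotype came from separate animals or from pooled retinas, so p-values measure the spread between arrays.

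The adult retina is a layered sheet of postmitotic neurons and glia. Rods, the most numerous cells, and cones turn light into a fall in glutamate release through a G protein cascade in their outer segments; bipolar cells carry that signal inward, horizontal and amacrine cells shape it with inhibition, ganglion cells send it to the brain, and Müller glia span all layers and recycle transmitter and visual pigment. Plk3 is a serine/threonine kinase of the polo-like family, known from cultured cells for roles in cell cycle entry and in the response to DNA damage and other stress. In array values of whole retinas, fewer cells of a type and less RNA per cell cannot be told apart, and this holds for every cell type list. By antibody staining of adult retinas, the study found no significant difference in counts of horizontal, amacrine or ganglion cells. It saw no qualitative difference in rods, bipolar cells or Müller glia.

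Markers of the labelled tissue were at the top of the scale on all 6 adult arrays, with the rod genes Gnat1, Sag and Nrl at log2 signals between 15.1 and 17.4. The third array of each genotype stood apart: the median of all probe sets was 7.2 on Plk3-KO array 3 and 7.0 on WT array 3 and lay between 6.3 and 6.5 on the other 4 arrays. Plk3-KO array 3 alone had a wider gap between the 3' and 5' control probe sets, a log2 gap of 2.70 for actin and 0.90 for Gapdh, against 1.60 to 1.80 and -0.20 to 0.00 on the other 5. RNA of the lens, which lies against the retina, also varied between arrays: the mean log2 level of 13 lens genes was 10.12, 6.79 and 11.16 on Plk3-KO arrays 1 to 3 and 10.82, 12.48 and 9.83 on WT arrays 1 to 3. Medians of the lists are therefore given with and without the third arrays, over the same genes; the part of lens RNA and of the array differences in these results was not tested.

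No probe set passed an adjusted p of 0.05 in limma with all arrays: the smallest Benjamini-Hochberg adjusted p among 21005 probe sets was 0.977. At an unadjusted p under 0.05, limma gave 446 probe sets higher (2.12%) and 562 lower (2.68%) in Plk3-KO retinas. The 3 Plk3-KO arrays lay above all 3 WT arrays for 204 of 11233 genes (1.82%) and below them for 462 (4.11%). Counts within a cell type or pathway are read against these shares and against the median difference of all genes tested, which was -0.07 on the log2 scale, with 39.7% of genes above 0 and 55.5% below. Several lists hold genes that the study named as changed on these same arrays. The counts of those lists are therefore not independent of the data. Every difference is Plk3-KO minus WT on the log2 scale, and the adjusted p of every gene below was 0.977 or higher with all arrays. SE is limma's standard error, with the spread pooled over adult, P7 and P0 arrays. It can therefore differ from the spread of the adult arrays alone.

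Plk3 itself was read at 7.4, 8 and 7.7 on Plk3-KO arrays 1 to 3 and 5.9, 3.9 and 5.8 on WT arrays 1 to 3. Plk3-KO arrays were all above WT arrays, but the WT arrays lay below the minimum of 7, so the probe set was tested only through its Plk3-KO signal and the size of the difference, 2.50 on the log2 scale, is not established. For any gene without overlap the exact two-sided permutation test over 3 against 3 arrays gives p = 0.1, the smallest p this design allows. The probe set reads the 3' end of the transcript, and no map of the disrupted part was used here, so the array signal does not check the genotype labels. The study places this probe set beyond the region targeted in the knockout. Its qPCR found the 3' end of Plk3 raised and an amplicon within the targeted part strongly reduced in Plk3-KO retinas. Its in situ probes for Plk3 gave no signal in Plk3-KO retinas. Of the other polo-like kinases, Plk4, which starts centriole duplication, was read at 7.1, 6.7 and 7 on Plk3-KO arrays 1 to 3 and 7.3, 7.4 and 7.9 on WT arrays 1 to 3, lower without overlap by a log2 difference of -0.60, with the Plk3-KO mean of 6.93 just below the minimum. Plk2, a stress- and activity-regulated relative, differed by -0.47 and the brain-enriched Plk5 by -0.17, both with overlapping arrays, and Plk1, the mitotic member, was below the minimum.

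The rod phototransduction median rested on the third arrays, though single genes differed in this. All 9 tested genes of the rod phototransduction cascade had differences above 0 in the probe set used, with a median of 0.37, but no gene was without overlap. With the mean over all tested probe sets of a gene, the median was 0.27. The median was 0.00 once the third arrays were left out and 0.12 after quantile normalization of all arrays. On the third arrays alone the median was 0.90. Gnat1, the alpha subunit of rod transducin, was read at 16.2, 16 and 17.4 in Plk3-KO and 16.5, 16 and 15.5 in WT. Plk3-KO array 3 was the highest and WT array 3 the lowest of the 6, and the difference went from 0.53 to -0.15 without them. Gnb1, the beta subunit of transducin, was read at 15.9, 15.6 and 16.4 in Plk3-KO and 16, 15.5 and 15.2 in WT. Pde6g, the inhibitory subunit of the rod phosphodiesterase, was read at 15.8, 15.5 and 16.3 in Plk3-KO and 16, 15.5 and 15 in WT. Both had the same highest and lowest arrays as Gnat1. Without the third arrays 4 genes of the list were above 0 and 3 below. Gngt1 went from 0.50 to -0.15, while Pde6a went from 0.23 to 0.60 and Slc24a1 from 0.40 to 0.65. Cnga1 was then at 0.25 and Cngb1 at 0.10. With all arrays, the other tested probe sets of Gngt1 gave -0.13, -0.10 and 0.23. The genes of this list other than Gnat1 were named after their values were seen. The gene for rhodopsin was not analysed here.

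**Figure D1:**
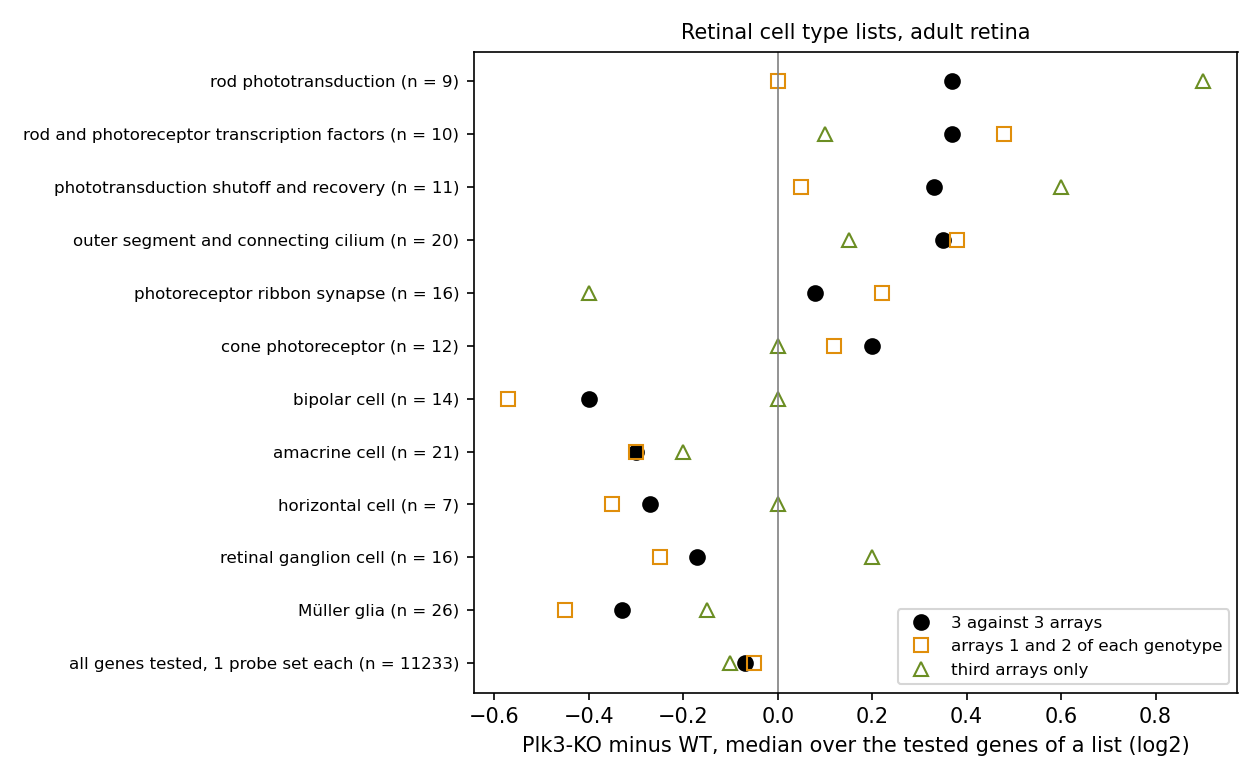
Median log2 difference, Plk3-KO minus WT, over the tested genes of each retinal cell type list, with all 3 arrays of each genotype (filled circles), with arrays 1 and 2 only (squares) and between the third arrays only (triangles); n is the number of genes. Rod phototransduction sits at 0.37, 0.00 and 0.90 in that order, while Müller glia sit at -0.33, -0.45 and -0.15.

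Photoreceptor transcription factors stood higher in Plk3-KO retinas with and without the third arrays. All 10 tested members had differences above 0 in the probe set used, with a median of 0.37, and 0.48 without the third arrays. The median was 0.10 on the third arrays alone and 0.25 after quantile normalization of all arrays. It was 0.27 with the mean over all tested probe sets of each member. Their mean level was 12.38, 12.33 and 12.09 in Plk3-KO and 11.88, 11.86 and 11.96 in WT, with no overlap of genotypes. Casz1, a zinc finger factor that keeps rod nuclei organised, was read at 11.1, 10.9 and 11.6 in Plk3-KO and 10.3, 10.1 and 10.6 in WT. It was the only member without overlap, 1 of 10 against 1.82% of all genes, and the study named it as higher on these arrays. It was higher by a log2 difference of 0.87 (SE 0.393, n = 3 each), and 0.80 higher without the third arrays. A second Casz1 probe set gave -0.20. Of the other members only Rorb had further tested probe sets below 0, at -0.27 and -0.07. Rorb was named after its values were seen. Crx, the homeobox factor that drives photoreceptor genes, was read at 14.5, 14.2 and 14 in Plk3-KO and 14.1, 13.8 and 13.7 in WT, with WT array 1 inside the Plk3-KO range, and differed by 0.37. Mef2c, a MADS-box factor active in rods, was read at 12, 11.5 and 11.1 in Plk3-KO and 11, 11.1 and 10.9 in WT. Its Plk3-KO and WT ranges touched at 11.1, and the 5 probe sets of Mef2c gave differences from 0.20 to 0.83. Nrl, the factor that sets rod fate, differed by 0.37 with all arrays, 0.00 without the third arrays and -0.02 after quantile normalization.

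The promoters of Casz1, Crx and Sag are shown because they belong to photoreceptor genes described here and each holds TAATCC or its reverse complement GGATTA, the core letters bound by Crx and Otx homeobox factors. Each is the 300 bases from 250 before to 50 after the RefSeq start, on GRCm38.p6, read 5' to 3' on the gene's strand, with the matches in capitals. 
Casz1, chr4:148889097-148889396, plus strand: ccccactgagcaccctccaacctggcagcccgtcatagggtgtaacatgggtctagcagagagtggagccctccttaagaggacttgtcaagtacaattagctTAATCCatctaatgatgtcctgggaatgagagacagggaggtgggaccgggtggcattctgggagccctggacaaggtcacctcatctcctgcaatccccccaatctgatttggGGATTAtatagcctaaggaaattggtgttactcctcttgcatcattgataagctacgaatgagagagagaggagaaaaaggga
Crx, chr7:15879906-15880205, minus strand: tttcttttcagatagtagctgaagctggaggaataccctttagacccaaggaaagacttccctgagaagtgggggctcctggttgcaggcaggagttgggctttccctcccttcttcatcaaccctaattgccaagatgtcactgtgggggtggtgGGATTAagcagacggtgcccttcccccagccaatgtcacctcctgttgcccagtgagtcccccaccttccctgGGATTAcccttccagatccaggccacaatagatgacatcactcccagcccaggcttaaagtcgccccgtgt
Sag, chr1:87803430-87803729, plus strand: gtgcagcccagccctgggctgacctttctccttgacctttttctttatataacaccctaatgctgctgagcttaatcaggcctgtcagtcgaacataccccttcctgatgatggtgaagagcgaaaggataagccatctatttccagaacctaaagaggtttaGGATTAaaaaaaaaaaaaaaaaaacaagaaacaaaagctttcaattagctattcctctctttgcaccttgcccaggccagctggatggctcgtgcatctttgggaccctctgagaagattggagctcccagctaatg
TAATCC, searched on both strands, was in 7.06% of all 32851 RefSeq promoters, and in 16 of 66 promoters (24.2%) of the 5 photoreceptor lists (rod phototransduction, transcription factors, shutoff, outer segment and cone genes). It was in 4 of 23 promoters of bipolar cell genes (17.4%), 1 of 26 of amacrine cell genes (3.85%) and 2 of 22 of Müller glia genes (9.09%). A match describes the letters in this window and is not a measurement of binding.

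Genes for shutoff and recovery of the light response followed the rod cascade. Of 11 tested, 10 had differences above 0 and the median was 0.33, against 0.05 without the third arrays, 0.60 on the third arrays alone and 0.08 after quantile normalization of all arrays. With single arrays left out it ran from 0.12 without WT array 3 to 0.57 without WT array 1. Abca4, the flippase that clears retinal from discs, was read at 14.3, 14.3 and 14 in Plk3-KO and 13.6, 13.4 and 13.4 in WT, higher without overlap by a log2 difference of 0.73 (SE 0.198, n = 3 each). Rgs9bp, which anchors the transducin GTPase complex to the disc membrane, was read at 13.6, 13.6 and 13.5 in Plk3-KO and 12.6, 12.4 and 13.3 in WT, higher without overlap by a log2 difference of 0.80 (SE 0.24, n = 3 each). These were 2 of 11 against 1.82% of all genes. For both genes the difference was larger without the third arrays, 0.80 for Abca4 and 1.10 for Rgs9bp, and limma's adjusted p was then 0.227 and 0.0924. Sag, rod arrestin, was read at 15.9, 15.6 and 16.7 in Plk3-KO and 16.3, 15.6 and 15.3 in WT. Plk3-KO array 3 was the highest and WT array 3 the lowest, and the difference went from 0.33 to -0.20 without them; it was -0.10 after quantile normalization of all arrays. Grk1, the rhodopsin kinase, differed by 0.37 with overlapping arrays.

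Outer segment and connecting cilium genes had a median difference of 0.35 over 20 genes, 16 above 0 and 3 below, and 0.38 without the third arrays. The median was 0.15 on the third arrays alone and 0.28 after quantile normalization of all arrays. Their mean level was 12.25, 11.96 and 12.04 in Plk3-KO and 11.75, 11.71 and 11.85 in WT, again without overlap. Rp1, a microtubule-binding protein of the rod axoneme, was read at 14.3, 14.2 and 14 in Plk3-KO and 13.7, 13.7 and 13.8 in WT, higher without overlap by a log2 difference of 0.43 (SE 0.308, n = 3 each). Its paralogue Rp1l1 was read at 12.6, 12.4 and 12.1 in Plk3-KO and 11.8, 11.5 and 11.9 in WT, higher without overlap by a log2 difference of 0.63 (SE 0.246, n = 3 each). These were the 2 members without overlap, 2 of 20 against 1.82% of all genes. The study named both as higher on these arrays, so the count is not independent of the data. Both differences were larger without the third arrays, 0.55 and 0.85. The study also reports Rp1 as higher by qPCR. Prph2, a disc rim tetraspanin, was read at 13.9, 12.7 and 14.3 in Plk3-KO and 12.8, 12.8 and 12.7 in WT, where Plk3-KO array 2 was below WT arrays 1 and 2 and level with WT array 3. Its partner Rom1 differed by 0.00.

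At the photoreceptor terminal the lists gave less. The ribbon synapse list had a median of 0.08 over 16 genes, 0.22 without the third arrays and -0.40 on the third arrays alone, with 9 genes above 0 and 7 below and none without overlap. Cacna1f, the photoreceptor calcium channel, differed by 0.40 and its partner subunit Cacna2d4 by 0.30, both with WT array 3 inside or above the Plk3-KO range. Cone genes had a median of 0.20 over 12 genes, 0.12 without the third arrays and 0.06 without Plk3-KO array 1, and none without overlap. The cone opsins Opn1sw and Opn1mw differed by 0.20 and 0.00, and the other tested probe set of Opn1sw gave 0.67. The mean level of the cone list was 11.27, 11.31 and 11.22 in Plk3-KO and 11.08, 11.12 and 11.13 in WT.

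**Figure D2:**
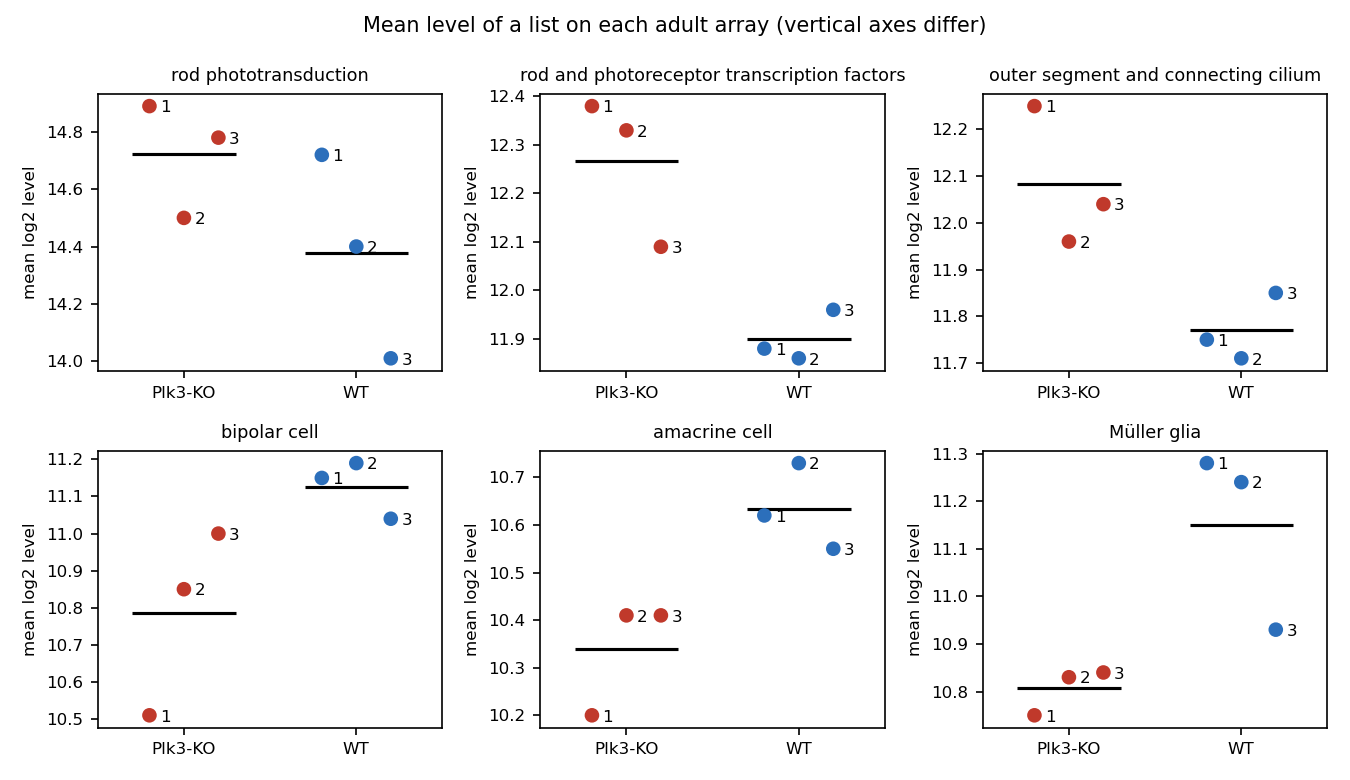
Mean log2 level of the tested genes of 6 cell type lists on each adult array (vertical axes, which differ in range and do not start at 0), with Plk3-KO in red, WT in blue, the replicate number beside each point and a line at the mean of 3. Genotypes do not overlap for 5 lists; for rod phototransduction WT array 1 at 14.72 lies above Plk3-KO array 2 at 14.50.

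Bipolar cell genes lay lower in Plk3-KO retinas. Of 14 tested genes, 11 had differences below 0 and 3 above, with a median of -0.40, and -0.57 without the third arrays; the third arrays alone had a median of 0.00. The mean level was 10.51, 10.85 and 11.00 in Plk3-KO and 11.15, 11.19 and 11.04 in WT. Plk3-KO arrays were all below WT arrays, with Plk3-KO array 1 the lowest and array 3 close to WT array 3. The 4 genes without overlap, 4 of 14 against 4.11% of all genes, were Sebox, Car8, Tmem215 and Isl1. The study named Sebox and Car8 as lower on these arrays, so the count is not independent of the data. Sebox, a homeobox gene of rod bipolar cells, was read at 10.5, 10.7 and 10.8 in Plk3-KO and 11.2, 11.3 and 11 in WT, lower by a log2 difference of -0.50 (SE 0.252, n = 3 each). Car8, a carbonic anhydrase-like protein of bipolar cells, was read at 10.9, 11.1 and 11.1 in Plk3-KO and 11.7, 11.9 and 11.7 in WT, lower by a log2 difference of -0.73 (SE 0.47, n = 3 each). Every further tested probe set of both genes was also below 0, between -0.37 and -1.27. Isl1, a LIM homeobox factor of ON bipolar cells and other inner neurons, was read at 11.1, 11.9 and 12.1 in Plk3-KO and 12.2, 12.3 and 12.4 in WT, lower by a log2 difference of -0.60 (SE 0.244, n = 3 each), and Tmem215 at 8.7, 8.9 and 8.7 in Plk3-KO and 9.2, 9.9 and 10.1 in WT, lower by a log2 difference of -0.97 (SE 0.588, n = 3 each). Most members with overlap lay below 0 as well, among them Rgs11, a regulator of the ON bipolar G protein, at -0.47, Pcp2, a G protein modulator of ON bipolar cells, at -0.27 and Nyx, the nyctalopin of ON bipolar dendrites, at -0.23. Prkca, the protein kinase C of rod bipolar cells, differed by 0.03, and by -0.13 in its other tested probe set. Trpm1, the ON bipolar channel, differed by 0.30 with all arrays and by -0.25 without the third arrays. Rgs11, Pcp2, Nyx and Prkca were named after their values were seen.

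Amacrine cell genes lay lower as well, 17 of 21 below 0 and 4 above, with a median of -0.30 both with and without the third arrays, and -0.20 on the third arrays alone. Their mean level was 10.20, 10.41 and 10.41 in Plk3-KO and 10.62, 10.73 and 10.55 in WT, and no Plk3-KO array reached a WT array. Nhlh2, Dab1 and Tac1, 3 of 21 against 4.11% of all genes, were lower without overlap. The study named Nhlh2 and Tac1 as lower on these arrays, so the count is not independent of the data. It also reports Tac1 as lower by qPCR. Tac1, the precursor of substance P and neurokinin A, was read at 10.7, 10.9 and 10.8 in Plk3-KO and 11.3, 11.7 and 11.9 in WT, lower by a log2 difference of -0.83 (SE 0.375, n = 3 each). Nhlh2, a basic helix-loop-helix factor, was read at 10.1, 10.4 and 9.6 in Plk3-KO and 10.7, 10.9 and 10.7 in WT, lower by a log2 difference of -0.73 (SE 0.277, n = 3 each). Dab1, the reelin adaptor, was read at 9.4, 9.7 and 9.7 in Plk3-KO and 9.8, 9.9 and 9.9 in WT, a smaller gap of a log2 difference of -0.27 (SE 0.364, n = 3 each). Gad1, the main enzyme of GABA synthesis, was read at 13.4, 13.8 and 13.1 in Plk3-KO and 13.9, 13.9 and 13.7 in WT, lower by 0.40 on the log2 scale with Plk3-KO array 2 reaching the WT range, and Gad2 differed by -0.53 with overlap. Tfap2c, an amacrine AP-2 factor, gave 0.30 in its brightest probe set and -0.43 and -1.30 in its other tested probe sets, the last with Plk3-KO arrays below the minimum, so it has no single direction here.

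Of the other inner neurons, horizontal cell genes had a median of -0.27 over 7 genes, and -0.35 without the third arrays, and ganglion cell genes -0.17 over 16, and -0.25 without them. The horizontal median turned to 0.30 without Plk3-KO array 1. In the horizontal list Lhx1, a LIM homeobox factor, differed by -0.27 and Onecut1 by 0.43, both with overlapping arrays. In the ganglion cell list Rbpms, an RNA-binding protein of all ganglion cells, was the 1 gene of 16 without overlap, against 4.11% of all genes lower. Rbpms was read at 9.5, 9.6 and 9.5 in Plk3-KO and 9.8, 10 and 9.7 in WT. Pou4f1 differed by 0.40 with overlap, 0.10 without the third arrays and -0.50 in its other tested probe set. GABA and glycine receptor genes had a median of -0.20 over 12, and -0.08 without the third arrays. Of the 12, 2 were lower without overlap, against 4.11% of all genes. These were Gabrr1 and Gabrr2, the subunits of the GABA-C receptor of bipolar terminals: Gabrr1 was read at 9.8, 10.6 and 10.3 in Plk3-KO and 10.9, 11.2 and 10.8 in WT and Gabrr2 at 10.5, 11 and 10.7 in Plk3-KO and 11.3, 11.6 and 11.1 in WT. Both lie on chromosome 4, as do Plk3, Casz1, Car8, Tmem215 and Dab1. So do Chd7, Clic4, Pink1, Ndufs5, Mfap2 and Id3, which are named below among the genes with the smallest p. The study also places Cap1, Khdrbs1 and Med8 there. On that chromosome 17 of 695 genes were higher (2.45%) and 39 lower (5.61%) without overlap. Chromosomes X, 13 and 6 had larger shares of lower genes (8.22%, 7.11% and 6.58%). Since the disrupted Plk3 allele and its linked stretch of chromosome 4 differ together between the genotypes, the effect of linked sequence cannot be told apart from that of Plk3.

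Müller glia genes were below 0 almost throughout. Of 26 tested genes, 24 had differences below 0, none was above and 2 were at 0.00; the median was -0.33, -0.45 without the third arrays and -0.15 on the third arrays alone. Their mean level was 10.75, 10.83 and 10.84 in Plk3-KO and 11.28, 11.24 and 10.93 in WT. All Plk3-KO arrays were below all WT arrays, and WT array 3 was the nearest to them. The 5 genes without overlap, 5 of 26 against 4.11% of all genes, were Vim, Ttyh1, Nrarp, Gpr37 and Cd9. The study named Vim, Ttyh1 and Nrarp as lower on these arrays, so the count is not independent of the data. Vim, the intermediate filament vimentin, was read at 11.7, 11.9 and 11.7 in Plk3-KO and 12.4, 12.5 and 12.1 in WT, lower by a log2 difference of -0.57 (SE 0.192, n = 3 each), and its other probe sets gave -0.67 and -0.53. Ttyh1, a chloride channel relative, was read at 11.1, 11.1 and 11.2 in Plk3-KO and 11.5, 11.5 and 11.4 in WT, lower by a log2 difference of -0.33 (SE 0.227, n = 3 each). Nrarp, a feedback inhibitor of Notch signalling, was read at 8.7, 8.8 and 8.7 in Plk3-KO and 9.3, 9.2 and 9.1 in WT, lower by a log2 difference of -0.47 (SE 0.162, n = 3 each). Gpr37 was read at 11.2, 11.4 and 11.4 in Plk3-KO and 11.8, 11.7 and 11.6 in WT and the tetraspanin Cd9 at 10.4, 10.4 and 10.3 in Plk3-KO and 10.9, 11.1 and 10.5 in WT. Of the enzymes and carriers that define the cell, Glul, which makes glutamine from glutamate, differed by -0.13 in its brightest probe set and -0.60 in its other, and Rlbp1, the retinaldehyde carrier, by -0.33, all with overlap. Slc1a3, the glial glutamate transporter, differed by -0.63 with overlap in the probe set used for the list, and its other 3 gave -0.50, -0.47 and -0.23; it was named after its values were seen.

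**Figure D3:**
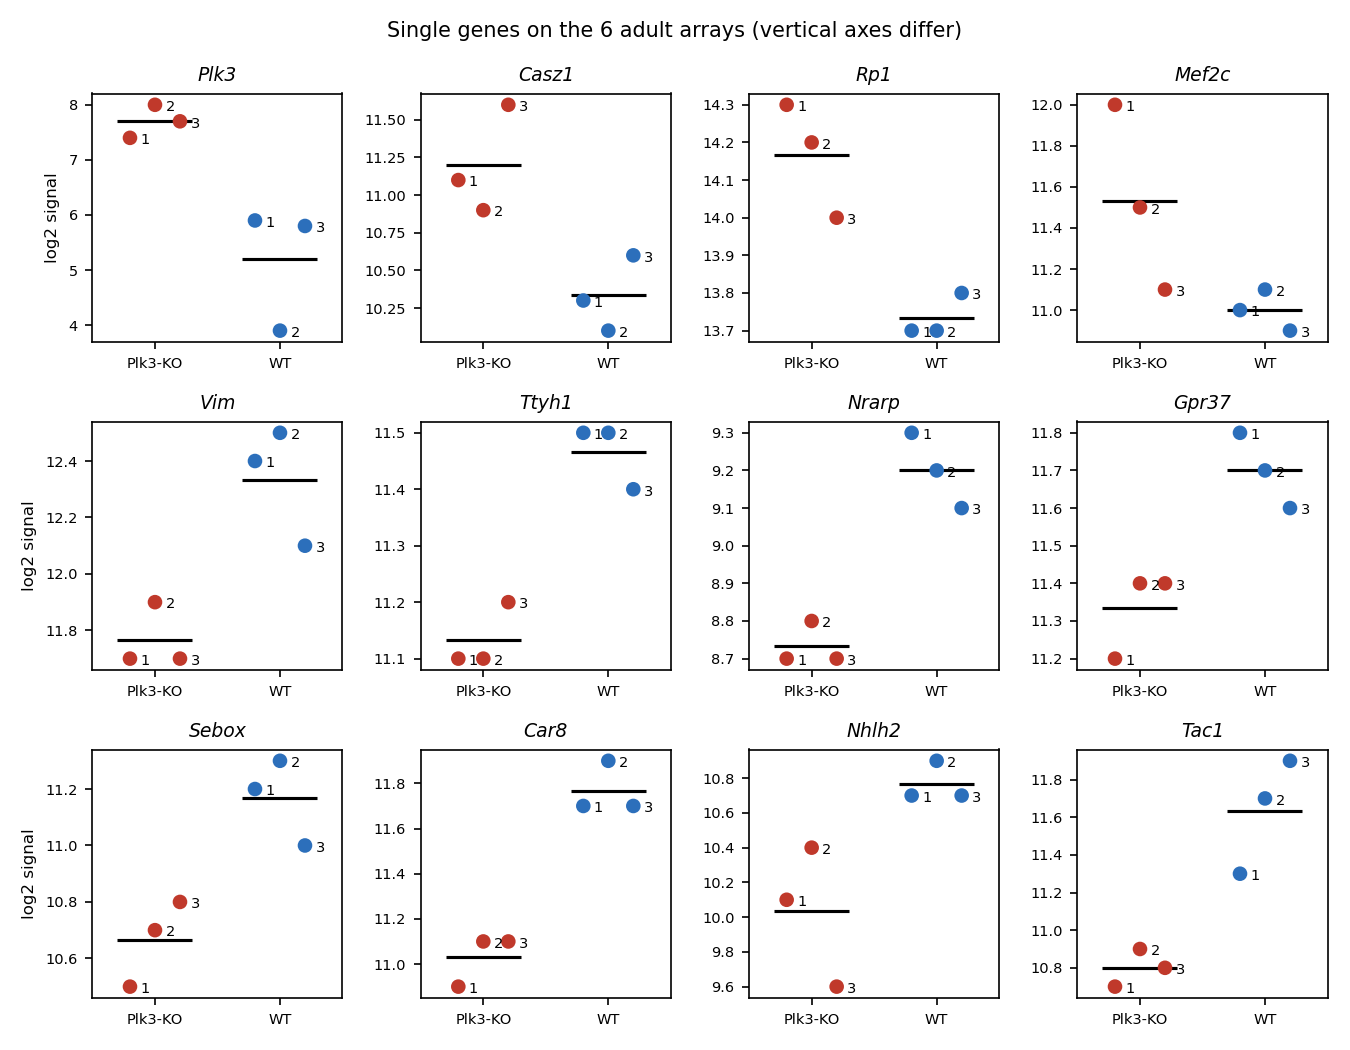
Log2 signal of 12 genes on the 6 adult arrays (vertical axes, which differ in range and do not start at 0), with Plk3-KO in red, WT in blue, the replicate number beside each point and a line at the mean of 3. Plk3, Casz1 and Rp1 are higher and Vim, Ttyh1, Nrarp, Gpr37, Sebox, Car8, Nhlh2 and Tac1 lower in Plk3-KO without overlap, and the Mef2c ranges touch at 11.1.

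Markers of cells at the margins of the sample gave no common direction. Astrocyte genes had a median of -0.02 over 6 and microglia genes -0.40 over 9 with overlapping arrays, both the same without the third arrays, and endothelial and pericyte genes -0.22 over 8, and -0.40 without the third arrays. The microglia median ran from -0.62 without WT array 3 to -0.07 without WT array 2. Gfap, the filament protein that Müller glia make in injury, was read at 8.5, 8.7 and 7.5 in Plk3-KO and 8.3, 8.5 and 8.3 in WT and differed by -0.13; Cx3cr1 and Csf1r of microglia differed by -0.70 and 0.13. Pigment epithelium genes had a median of 0.10 over 12, -0.45 without the third arrays and 1.00 on the third arrays alone, and Rpe65, the visual cycle isomerase, was read at 12.2, 12.1 and 10.2 in Plk3-KO and 11.5, 11.2 and 10.4 in WT. Lens genes were all 13 below 0, with a median of -1.53, and -3.35 without the third arrays. Cryaa, alpha-A crystallin, was read at 10.7, 7 and 11.6 in Plk3-KO and 12.1, 13.5 and 11.1 in WT. The Plk3-KO arrays alone ran from 7.0 to 11.6, and on the third arrays the lens median was 1.70, in the opposite direction. Cryab differed by -1.17 with overlap, and Bfsp2, a lens filament protein, was read at 6.6, 6.2 and 6.6 in Plk3-KO and 6.9, 7.7 and 6.9 in WT, lower without overlap but with all Plk3-KO arrays below the minimum. No red blood cell gene passed the minimum, and 4 connective tissue and 3 skeletal muscle genes that did had medians of 0.22 and 0.13, -0.20 and 0.05 without the third arrays, with Col1a2 and Acta1 at 0.23 and 0.13.

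Cell cycle and stress lists held few differences. Of 17 mitosis genes measured, 3 passed the minimum, with a median of 0.23, and 0.35 without the third arrays. G1 cyclins, CDK inhibitors and Rb family genes had a median of -0.08 over 16, and 0.03 without the third arrays, with none without overlap; Ccnd1 differed by 0.00 and Ccnd2 by 0.47 with overlap. p53 target genes had a median of -0.02 over 12, and 0.25 without the third arrays, with Mdm2 at -0.03. Tigar, a regulator of glycolysis, was the 1 gene of 12 without overlap, against 1.82% of all genes higher. Tigar was read at 10.5, 10.5 and 10.2 in Plk3-KO and 10.1, 10 and 10.1 in WT. Genes for Plk3 substrates and partners had a median of -0.23 over 7, -0.25 without the third arrays, and none without overlap, with Cdc25a, a cell cycle phosphatase, at -0.23. Immediate early genes were below 0 in 8 of 8, with a median of -0.42, and -0.40 without the third arrays; it was -0.13 without Plk3-KO array 3 alone and -0.80 without WT array 3 alone. Fos was read at 10.2, 11.2 and 9.7 in Plk3-KO and 11.7, 11.2 and 10.2 in WT, where Plk3-KO array 2 matched WT array 2. Nr4a1, the 1 member of 8 without overlap, was read at 8.6, 9 and 8.8 in Plk3-KO and 9.4, 9.1 and 9.1 in WT. Of all genes, 4.11% were lower without overlap. The gliosis list had a median of -0.17 over 10, -0.38 without the third arrays and 0.05 without WT array 2. Its member Serpina3n, an acute phase protease inhibitor that marks reactive glia, was read at 5.5, 6.3 and 2.8 in Plk3-KO and 7.2, 7.7 and 6.6 in WT. It was lower without overlap, but all Plk3-KO arrays and WT array 3 lay below the minimum and it was tested only through its WT mean, so the size of the difference is not established, while Edn2, a ligand made by stressed photoreceptors, differed by -0.03.

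Metabolic and ribosomal genes depended on the third arrays. Cytosolic ribosomal protein genes had a median of 0.17 over 30, -0.30 without the third arrays and 1.10 on the third arrays alone. With all arrays the ribosomal median was 0.03 after quantile normalization, and it was -0.05 without Plk3-KO array 3 and -0.06 without WT array 3. Mitochondrial complex I genes gave 0.03, -0.30 and 0.80 over 31 genes in the same order (-0.01 for all arrays after quantile normalization and -0.03 after median centring), and all 31 lay below 0 without the third arrays. Ndufa1, a complex I subunit, was read at 14, 13.7 and 14.5 in Plk3-KO and 14.2, 14.2 and 13.7 in WT, Ndufa2 at 12.8, 12.5 and 14.1 in Plk3-KO and 13, 12.8 and 12.5 in WT, and the ribosomal protein gene Rpl4 at 14.7, 14.3 and 14.6 in Plk3-KO and 14.9, 14.5 and 14 in WT. WT array 3 was the lowest or joint lowest of the 6 for all of these. Glycolysis genes had a median of 0.03 over 17 (-0.09 after quantile normalization) and -0.20 without the third arrays, with the glucose transporter Slc2a1 at -0.10 and the hexokinase Hk1 at 0.07. Heat shock and circadian clock lists both had a median of 0.00, and -0.05 and 0.10 without the third arrays, with Hspa1a, Hspa1b, Clock and Arntl at -0.03, 0.03, 0.10 and 0.00. Synaptic vesicle genes had a median of -0.08 over 20 and ionotropic glutamate receptor genes -0.08 over 10, and -0.07 and -0.03 without the third arrays, with Syn1, Syn2, Gria1 and Gria2 at -0.40, -0.07, -0.17 and 0.03, all with overlap.

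In the Notch pathway the median was -0.27 over 15 genes, and -0.15 without the third arrays. Nrarp was the 1 gene of 15 without overlap, against 4.11% of all genes lower. The receptors Notch1 and Notch2 differed by -0.27 and 0.23. Actin genes had a median of -0.10 over 18, and -0.23 without the third arrays. Among them Cap1, a cyclase-associated protein that recycles actin monomers, was read at 11, 11 and 10.1 in Plk3-KO and 9.5, 9.6 and 9.2 in WT. It was higher without overlap by a log2 difference of 1.27 (SE 0.48, n = 3 each), and a further Cap1 probe set gave 1.53, while its relative Cap2 differed by -0.10. RNA binding and splicing genes had a median of -0.17 over 24, and 0.00 without the third arrays. Srsf2, a splicing factor, was lower without overlap by 0.23 on the log2 scale, 1 of 24 against 4.11% of all genes. Khdrbs1, a signalling-linked RNA-binding protein, differed by -0.57 in its brightest probe set and its other tested probe sets ranged from -3 to 0.53, and its relative Khdrbs2 differed by -0.23. Mediator subunit genes had a median of 0.00 over 30, and -0.13 without the third arrays, with Med1 and Med4 at 0.23 and -0.07. Med17 and Med23 were lower without overlap by 0.33 and 0.30 on the log2 scale, 2 of 30 against 4.11% of all genes. Med8 gave 0.17 in its brightest probe set and -2.10 in another, where the Plk3-KO arrays lay below the minimum.

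By the smallest limma p among probe sets with both genotype means above 7, the higher genes were led by Chd7, a chromatin remodeller, at 11.8, 11.6 and 11.6 in Plk3-KO and 10.8, 10.7 and 11.3 in WT. Chd7 was higher by a log2 difference of 0.73 (SE 0.155, n = 3 each). Cad, the first enzyme of pyrimidine synthesis, was read at 9.6, 9.1 and 9.6 in Plk3-KO and 8.4, 8.5 and 8.6 in WT, and Prkar2a, a protein kinase A regulatory subunit, at 12.1, 11.9 and 12.4 in Plk3-KO and 11.6, 11.5 and 11.4 in WT. Ro60, Purb, Sgk3 and 2 probe sets of Otud7b completed the first 8, all without overlap, with differences from 0.57 to 1.03. On the lower side Clic4, a chloride channel relative, was read at 8.6, 8.7 and 7.4 in Plk3-KO and 9.8, 9.3 and 9.3 in WT, and Cp, the copper ferroxidase ceruloplasmin made by Müller glia, at 9.7, 9.8 and 9.4 in Plk3-KO and 10.4, 10.5 and 10.7 in WT. Pink1, the kinase that marks damaged mitochondria, was read at 11.5, 11.7 and 10.6 in Plk3-KO and 13.4, 12.7 and 12.1 in WT, lower by a log2 difference of -1.47 (SE 0.371, n = 3 each). Strip2, Shd, Plat, Prmt6 and Id2, an inhibitor of helix-loop-helix factors, completed the first 8 lower genes, without overlap, with differences from -0.80 to -1.57. For Cad and Clic4 the third arrays had the same sign as the others: the difference between the third arrays was 1.00 and -1.90, and without them it was 0.90 and -0.90. For Chd7 and Ro60 the sign was also the same, but the difference was 0.30 and 0.20 between the third arrays. Without the third arrays it was 0.95 and 1.05. Both probe sets are among those called without the third arrays, described below.

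Leaving out the third array of each genotype turned a comparison without calls into one with 67. Of 20242 probe sets then tested, limma called 67 higher (0.331%) and 0 lower at an adjusted p of 0.05, and at an unadjusted p under 0.05 it gave 1347 higher (6.65%) and 563 lower (2.78%). Of the 67, 59 had both genotype means over arrays 1 and 2 above 7, and the other 8 were tested only through their Plk3-KO signal. The calls needed the spread pooled over all ages: limma on the 4 remaining adult arrays alone called 0. They turned on WT array 3: leaving out only that array gave 105 calls, all higher, and leaving out only Plk3-KO array 3 gave 0. Of the 67 probe sets, 53 were among those 105, which is 79.1% of the first list and 50.5% of the second.

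Hook3, a microtubule adaptor of the Golgi, was read at 11, 11 and 10.8 in Plk3-KO and 8.9, 9.6 and 11.1 in WT. WT arrays 1 and 2 were low and WT array 3 was level with the Plk3-KO arrays, so that the difference of 1.75 (SE 0.244, limma adjusted p = 0.0166) without the third arrays became 1.07 with overlap when they were in. The scaffold Akap9, at 10.9, 10.8 and 10.7 in Plk3-KO and 9.5, 9.8 and 10.8 in WT, and the histone methyltransferase Kmt2c, at 11, 11.7 and 11.5 in Plk3-KO and 10, 10 and 11.8 in WT, had the same order of arrays. All 67 were called as higher on Plk3-KO arrays 1 and 2 than on WT arrays 1 and 2. That part of the order was therefore fixed by the call, which the third arrays did not enter. WT arrays 1 and 2 both lay below all 4 other adult arrays in 61 of the 67. WT array 3 was within the Plk3-KO range in 44 and above it in 20. The first 8 by p also held Klf12, Hspa4l, Ubn2, Zfp871 and Taok1, with differences from 1.15 to 1.55 without the third arrays. Between the third arrays the median difference of the 67 was -0.20, with 44 below 0 and 17 above. In the P7 and P0 retinas the same 67 probe sets had median differences of 0.00 and 0.07. Read by the probe sets used for the lists, 1 member of any list was among the 67, the glutamate transporter Slc1a2, at 11.9, 12.4 and 12.3 in Plk3-KO and 10.8, 10.9 and 12.3 in WT; it was named after its values were seen. No gene was called lower; Ndufs5, a complex I subunit, Mfap2, Gpx3, Atat1, Coro1a, E130311K13Rik, Pink1 and Id3 had the smallest p, with limma adjusted p from 0.0708 to 0.14.

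**Figure D4:**
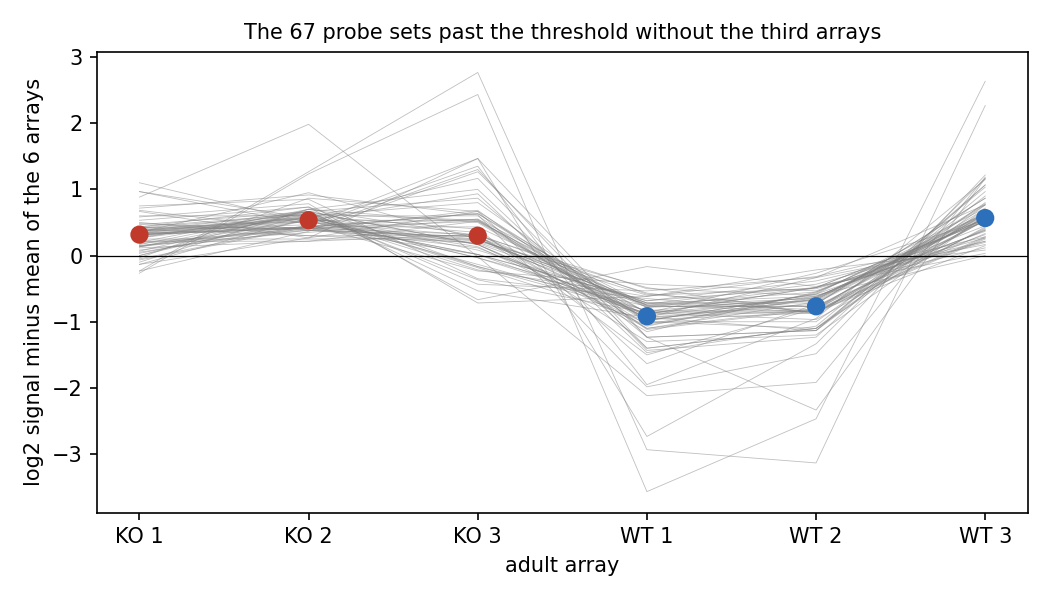
Log2 signal of the 67 probe sets called without the third arrays, each minus its mean over the 6 adult arrays (thin lines), with the median of the 67 on each array as a point, Plk3-KO in red and WT in blue. WT arrays 1 and 2 lie below the other 4, and WT array 3 lies with the Plk3-KO arrays. The order of arrays 1 and 2 between genotypes was fixed by the call, which the third arrays did not enter.

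These genes were long. The 67 probe sets named 50 genes, whose median genomic span in RefSeq was 84.8 kb against 24.9 kb for all tested genes, and 46 of the 50 were above the latter. The same gradient ran through all tested genes. With tested genes in 5 bins of equal number by span, from the shortest bin to the longest, the median difference went from -0.25 to 0.10 without the third arrays and from 0.10 to -0.20 between the third arrays, so that with all arrays it went only from -0.10 to 0.03. Within WT, array 3 minus the mean of arrays 1 and 2 had a median of -0.40 in the shortest bin and 0.30 in the longest, whereas within Plk3-KO the same medians were -0.05 and 0.00. The part of this gradient in the calls was not tested.

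**Figure D5:**
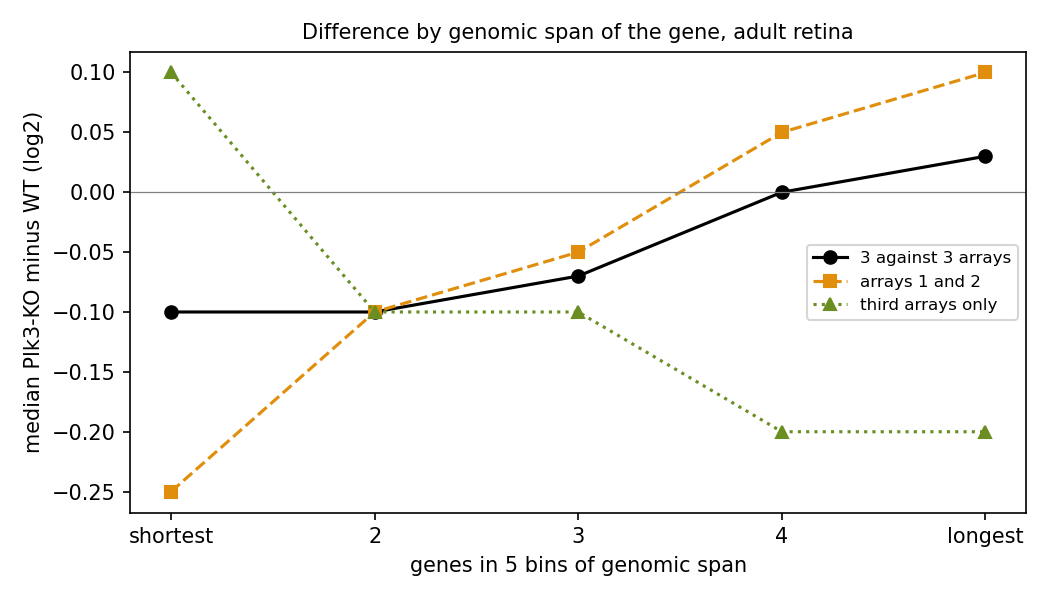
Median log2 difference, Plk3-KO minus WT, of tested genes in 5 equal bins of genomic span from the shortest (up to 8.26 kb) to the longest (from 76.8 kb), with all arrays (circles), with arrays 1 and 2 (squares) and between the third arrays (triangles). The squares go from -0.25 to 0.10 while the triangles go from 0.10 to -0.20.

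No adult difference was shown to be particular to the adult. The contrast of the adult difference with the mean of the P7 and P0 differences, in the same limma fit, called 0 of 21005 probe sets, with 450 (2.14%) at an unadjusted p under 0.05. For Tac1 that contrast was -0.92 (SE 0.459), for Casz1 0.63 (SE 0.481), for Vim -0.48 (SE 0.235) and for Sebox -0.43 (SE 0.308).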

How the data were processed

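Values were the log2 signals in the series value table, which the authors deposited after background adjustment and normalization by MAS5 (Bioconductor affy package; version not given in the sources used here), with 1 decimal. Control probe sets (64) were left out, and genes were named through the platform annotation, which pairs 34945 probe sets with 1 gene symbol, 932 with several and 9160 with none. In limma 3.58.1 (R 4.3.3), all 18 arrays were fitted in 6 groups of age and genotype, with variances moderated with a trend, and Benjamini-Hochberg adjustment ran over the 21005 probe sets tested (two-sided, threshold 0.05). The fit without the third arrays used the same model on 16 arrays, with 20242 probe sets above the minimum of 7. MAS5 scales each array as a whole, so array differences in RNA quality or transcript length remain, and 3 arrays a genotype limit the precision. The script was tested on simulated data of the same design with independent noise. There limma called 30% of 100 probe sets shifted by 1 on the log2 scale and 78% of 100 shifted by 2. A count of 0 calls therefore does not show that differences were absent. Alternatives were quantile normalization, median centring, other minimums, the adult arrays alone, no trend, the methods' t-test, a replicate block, each array left out, and all probe sets of a gene.

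Gene lists (39) and members were chosen with earlier results of these data known. Named genes were, for each list, its first 2 members and up to 3 further ones without overlap and with the largest difference, the genes the study names for the adult arrays, the 8 with the smallest limma p in each direction with and without the third arrays, and the polo-like kinases. Genes listed without a single-symbol probe set were not analysed here. A difference called without overlap has all 3 arrays of a genotype beyond all 3 of the other. Columns of all 18 arrays were used. Promoters and genomic spans came from RefSeq, GRCm38.p6.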

Additional observations from a re-analysis of the deposited data

How the results depend on the processing

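The count of 0 probe sets past the threshold held under quantile normalization, median centring, no minimum, a minimum of 8, the adult arrays alone, no trend, the methods' t-test and the replicate block, and ranged from 0 to 105 when single arrays were left out: 4 without Plk3-KO array 2 (all lower) and 105 without WT array 3 (all higher). It was 67 without the third arrays and 61 with quantile normalization added, of which 58 were higher; limma on the 4 remaining adult arrays alone gave 0, as did leaving out only Plk3-KO array 3. The contrast with the younger ages gave 0 to 2 when single arrays were left out (2 without Plk3-KO array 2) and 2 without the third arrays after quantile normalization. The methods' t-test gave 660 probe sets at an unadjusted p under 0.05 and 0 after Benjamini-Hochberg adjustment. The cause of these differences between settings was not tested.

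Without the third arrays, over the genes then above the minimum, the rod phototransduction median was 0.00, and signs reversed for Gnat1 (-0.15), Sag (-0.20), Ndufa1 (-0.35) and the lists of G1 cyclins (0.03), p53 targets (0.25, and 0.20 with quantile normalization), glycolysis (-0.20), ribosomal proteins (-0.30), complex I (-0.30), pigment epithelium (-0.45), connective tissue (-0.25) and, with quantile normalization, RNA binding genes (0.02). Nrl was at -0.02 after quantile normalization and the Notch list at 0.07 with a minimum of 8. With single arrays left out, medians ran from 0.22 to 0.50 for rod phototransduction, -0.53 to -0.22 for bipolar, -0.38 to -0.25 for amacrine and -0.47 to -0.29 for Müller glia genes (the last without WT array 3 at -0.47), and the range spanned 0 for horizontal cells (-0.42 to 0.30), astrocytes (-0.16 to 0.19), ribbon synapse (-0.08 to 0.21), pigment epithelium (-0.32 to 0.50), connective tissue (-0.19 to 0.57), mitosis (-0.07 to 0.27), p53 targets (-0.14 to 0.14), gliosis (-0.28 to 0.05), glycolysis (-0.20 to 0.10), complex I (-0.15 to 0.20), ribosomal proteins (-0.06 to 0.35), glutamate receptors (-0.37 to 0.20), actin (-0.22 to 0.02), Mediator (-0.17 to 0.10) and heat shock genes (-0.20 to 0.10). The circadian clock median, 0.00, ran from -0.18 to -0.01. The other gene values were counted once for each gene and setting, so a gene can count under several settings. Of these values, 31 passed the threshold under an alternative, all with WT array 3 left out. A further 38 moved by more than the spread between arrays without a call.

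Replicate numbers are shared between genotypes, but the labels do not say what they mark, so the numbers were not taken as pairs. Deviations from the group means correlated at 0.505, 0.090 and 0.473 between arrays of the same number, and at -0.611 to 0.417 between arrays of other numbers. Plk3-KO arrays 1, 2 and 3 each correlated best with the WT array of their own number, but WT array 2 correlated best with Plk3-KO array 1 (0.417). Whether the numbers mark pairs was not tested. With the replicate block 0 probe sets passed the threshold in limma (1281 at an unadjusted p under 0.05), also on the adult arrays alone (1081) and for the contrast with the younger ages (643); the block leaves each difference as it is.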
